A study of Rattus norvegicus with 3 samples.

Results

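Slc17a6 and Slc17a7 encode the vesicular glutamate transporters known as VGLUT2 and VGLUT1, and their transcripts were followed through the cells of the embryonic rat cortex. Both were found by gene symbol and are 2 of the 29772 genes in each deposited count matrix. The study took cerebral cortex from wild-type rats (Rattus norvegicus) and sequenced the RNA of single cells in droplets, in 3 libraries labelled E14, E16 and E18 for embryonic days 14, 16 and 18. All 3 groups share the genotype, the tissue, the papain dissociation and the 10x Genomics 3′ kit, version 3.1, and no treatment is given. The protocol text also describes the sorting of human cells with an antibody, which cannot apply to rat cells as written, and which of its steps were used is not known. The number of embryos in a library is not given. Each label has 1 library, so no difference between labels has a replicate check, and no p-value is given anywhere below.

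A vesicular glutamate transporter loads glutamate into synaptic vesicles, using the proton gradient that the vacuolar ATPase builds across the vesicle membrane. Carrying one of them is the defining trait of a neuron that releases glutamate. In the adult forebrain, VGLUT1 is the main form in cortical excitatory neurons and VGLUT2 is the main form in thalamic and many other subcortical ones, while many immature cortical neurons express VGLUT2. In the embryonic cortex, radial glia divide to give intermediate progenitors, which give newborn excitatory neurons that then mature. Cajal-Retzius cells, early neurons of the cortical surface that secrete reelin, are also glutamatergic.

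The sequences just upstream of both gene starts are given because the genes differed in pattern across the same cells, and because several factors that mark these classes (Neurog2, Neurod1, Neurod6) are basic helix-loop-helix proteins that bind E-boxes. Both genes were matched in the RefSeq promoter table of the GRCr8 build and lie on the plus strand of chromosome 1. The 200 bases that end at the base before the annotated gene start are chr1:110348247-110348446 for Slc17a6 and chr1:104785972-104786171 for Slc17a7. Capitals mark the E-box, CANNTG, which reads the same on both strands, and no other motif was searched.
Slc17a6: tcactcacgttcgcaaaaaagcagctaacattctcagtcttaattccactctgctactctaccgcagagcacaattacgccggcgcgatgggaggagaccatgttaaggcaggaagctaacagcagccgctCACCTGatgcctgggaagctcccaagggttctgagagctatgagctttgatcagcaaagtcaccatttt
Slc17a7: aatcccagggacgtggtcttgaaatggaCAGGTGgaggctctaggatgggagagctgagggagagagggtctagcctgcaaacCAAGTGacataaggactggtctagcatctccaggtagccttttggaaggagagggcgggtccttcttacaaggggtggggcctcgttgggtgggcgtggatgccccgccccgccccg
The Slc17a6 window held 1 E-box (CACCTG) and the Slc17a7 window held 2 (CAGGTG and CAAGTG). Of 23196 windows of the same length, 58.0% held at least 1 and 23.4% at least 2. The GC content was 50.5% for Slc17a6 and 60.5% for Slc17a7, against a median of 50% over all windows. These matches describe letters in a window and say nothing about binding.

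The libraries held 62740631 (E14), 80974234 (E16) and 73727823 (E18) unique molecular identifiers (UMIs, each standing for 1 captured transcript) in 7100, 6707 and 6937 cell barcodes. Barcodes with at least 1000 genes and at most 10% mitochondrial UMIs were kept and the highest doublet scores removed, which left 4286, 4977 and 5431 cells with median UMI counts from 10477 to 12264. Pairs of libraries shared 12 to 17 barcodes. The order of the labels did not match stage genes: of 14 genes that rise in late radial glia, 12 were lowest in the library labelled E16 and highest in the library labelled E14. Of 8 genes of early radial glia, 4 had the mirrored order, highest in E16 and lowest in E14, while 2 rose and 1 fell in label order. Embryonic globins made up 2.57% of globin UMIs in the library labelled E14, 67.4% in E16 and 22.01% in E18. The labels are therefore used below only as names of libraries, and no value is read as a trend with age. Levels are UMIs per 1000000 UMIs (CPM) in cells summed by class and library, with 95% exact intervals in parentheses that cover counting error only. Clusters were rebuilt and named from marker lists without using either transporter.

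Slc17a6 appeared in dividing progenitors, was highest in Cajal-Retzius cells and was low in maturing excitatory neurons, whereas Slc17a7 was highest in maturing excitatory neurons among the named classes of E14 and of E18. Radial glia, the stem cells of the cortex, had almost none of either. Slc17a6 stood at 0.867 CPM (0.282 to 2.02) in 391 radial glia of the library labelled E14, 0.709 (0.485 to 1.00) in 2927 of E16 and 0.356 (0.163 to 0.676) in 1805 of E18. Slc17a7 stood at 1.91 CPM (0.952 to 3.41), 0.199 (0.0911 to 0.378) and 1.07 (0.704 to 1.55) in the same cells. All 6 values lay below 2 CPM, and each gene was found in 0.307% to 2.81% of radial glia.

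**Figure D1:**
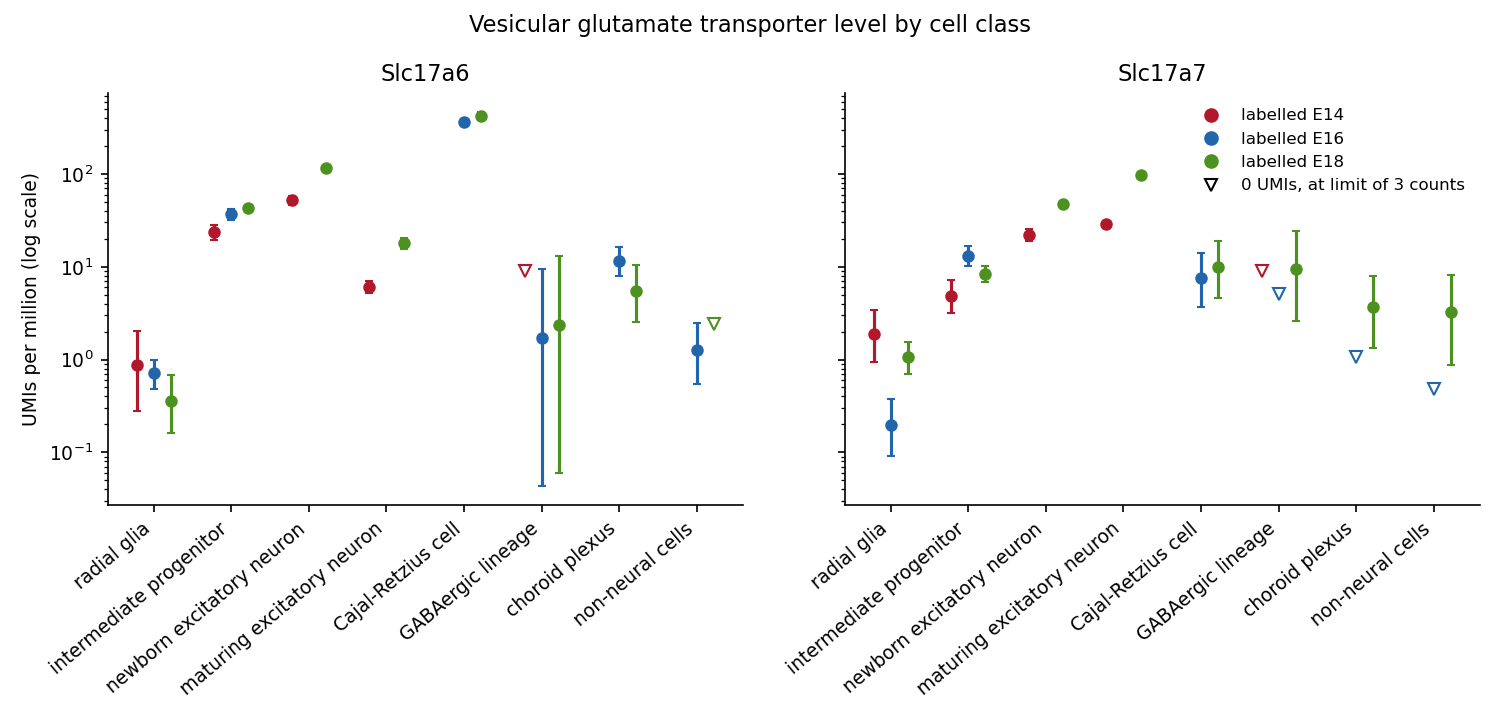
Levels of Slc17a6 (left) and Slc17a7 (right) in UMIs per 1000000 UMIs (CPM), on a log axis, by cell class and library, for sums of at least 50 cells. Points are class sums, bars are 95% exact counting intervals, and open triangles mark 0 UMIs, drawn at the level of 3 counts. Slc17a6 rises from radial glia to newborn neurons, falls in maturing neurons and is highest in Cajal-Retzius cells (359 and 419 CPM), while Slc17a7 is highest in maturing neurons (28.7 and 96.8 CPM).

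Intermediate progenitors, the precursors marked by Eomes, carried Slc17a6 in all 3 libraries. The class held clusters with high and with low RNA of dividing cells. Its level was 23.5 CPM (19.6 to 28.0) in 463 cells of E14, 36.7 (31.6 to 42.4) in 447 of E16 and 42.7 (39.2 to 46.4) in 1153 of E18. Slc17a7 reached 4.85 CPM (3.17 to 7.11), 13.2 (10.2 to 16.8) and 8.35 (6.85 to 10.1). Slc17a6 was lowest in E14, and the intervals of the other two libraries overlapped. That place depends on the setting, since removing doublets at 2 times the rate gave 53.8 CPM in E14 against 40.1 in E16 and 40.997 in E18. Slc17a7 was highest in E16, at 2.72 times its level in E14 (1.71 to 4.46), where 10.8% of all genes were at least 2-fold apart. No other ratio of the pair between these libraries passed 2-fold, which 3.05% of genes did between E18 and E14 and 3.57% between E18 and E16. The makeup of the class differed, since its largest cluster in E14 and E18 (cluster 1, with 62.0% and 49.8% of the cells) held 23.0% of it in E16.

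The progenitor signal was uneven, and Slc17a6 was highest in cluster 16. Cluster 16, led by the mitotic genes Ube2c and Hmmr together with Ppp1r17, had 47.6 CPM of Slc17a6 (34.7 to 63.6) in E14, 78.0 (64.7 to 93.3) in E16 and 95.6 (84.1 to 108) in E18. Cluster 1, led by Efl1, Eomes and Neurog2 and low in Top2a, a gene of dividing cells (10.3 to 38.2 CPM, against 869 to 1106 in cluster 16), had 10.6 (7.28 to 15.02), 13.1 (6.77 to 22.9) and 22.1 (18.4 to 26.3). The intervals did not overlap in any library, and the ratio of cluster 16 to cluster 1 was 4.47 (2.78 to 7.27), 5.96 (3.29 to 11.9) and 4.33 (3.48 to 5.42). At least 2-fold differences between these clusters were common, at 16.8%, 14.9% and 11.9% of all genes tested in E14, E16 and E18.

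Cells of cluster 16 also carried more neuronal RNA. Neurod1, a factor of newborn neurons, stood at 382, 711 and 746 CPM in cluster 16 against 261, 292 and 428 in cluster 1. The summed level of the 14 markers of maturing neurons was 1930, 2236 and 2404 CPM against 1088, 694 and 1007. The part that RNA of neurons plays in the Slc17a6 of cluster 16 was not tested. With every cell thinned to 2000 UMIs, Slc17a6 was found in 7.32% of 82, 12.8% of 141 and 15.3% of 235 cells of cluster 16, against 1.05%, 2.94% and 5.75% of cluster 1. Cluster 11, led by Gadd45g and histone genes of DNA replication, lay between them by value, at 34.9 CPM (25.8 to 46.2) in E14, 20.6 (15.5 to 26.9) in E16 and 38.0 (32.6 to 44.0) in E18. Its interval overlapped that of cluster 16 in E14 and that of cluster 1 in E16. Its Top2a, at 958, 910 and 1077 CPM, was about that of cluster 16. Slc17a7 was 8.45 CPM (3.65 to 16.7) in cluster 16 and 4.65 (2.54 to 7.81) in cluster 1 of E14, with overlapping intervals. In E16 it was 26.01 (18.6 to 35.4) against 1 UMI, a ratio of 23.8 (4.04 to 964) that rests on that UMI, and in E18 14.9 (10.6 to 20.4) against 7.94 (5.79 to 10.6).

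Newborn excitatory neurons, named from a list that includes Neurod1, Unc5d and Nrp1, carried both transporters with Slc17a6 ahead in UMIs. In 916 cells of E14, Slc17a6 stood at 51.8 CPM (46.8 to 57.2) and Slc17a7 at 22.04 (18.8 to 25.6). In 1313 cells of E18, Slc17a6 stood at 115 CPM (109 to 122) and Slc17a7 at 47.2 (43.3 to 51.5). Only 3 cells of E16 fell in this class, so it gives no value there. Different clusters made up the class: 99.5% of the E14 cells came from cluster 4 (led by Selenom, Pdzrn3 and Nrp1), and 51.7% and 47.9% of the E18 cells from clusters 10 (Sema6d, Pcp4, Cntn2) and 12 (Neurod1, Cbln2, Nhlh1).

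Within the newborn cells of E18, the cluster with more progenitor RNA had the higher Slc17a6. Cluster 12, with 4145 CPM over the intermediate progenitor markers, had 149.9 CPM of Slc17a6 (139 to 161). Cluster 10, with 1366 CPM over those markers, had 85.5 (78.2 to 93.3). The intervals of Slc17a7 overlapped, at 50.03 CPM (44.1 to 56.6) and 44.9 (39.6 to 50.6), a ratio of 1.12 (0.935 to 1.33). The Slc17a6 ratio was 1.75 (1.56 to 1.97), below 2-fold, which 5.52% of all genes passed.

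Maturing excitatory neurons, named from a list that includes Neurod2, Neurod6 and Snap25, had the reverse balance. Slc17a6 was 6.06 CPM (5.19 to 7.03) in 1922 cells of E14 and 17.9 (15.4 to 20.7) in 830 cells of E18. Slc17a7 was 28.7 CPM (26.7 to 30.7) and 96.8 (91.0 to 103), above Slc17a6 in both libraries. Over the alternatives tried, Slc17a6 ranged from 3.35 to 14.9 CPM in E14 and from 4.54 to 48.7 in E18. The class held no cell of E16. Maturing cells of E14 came from clusters 0 (57.9%), 9 (38.0%) and 5 (4.16%), and 98.3% of those of E18 from cluster 5. Single markers did not all separate the maturing from the newborn class. Neurod6 stood at 893 to 1220 CPM in the maturing clusters and at 1172 to 1347 in the newborn ones. Neurod1, a newborn marker, stood at 429 CPM in cluster 5 of E14 against 373 in newborn cluster 4.

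The 3 maturing clusters differed in Slc17a6 more than in Slc17a7. In E14, Slc17a6 stood at 25.5 CPM (18.0 to 35.2) in the 80 cells of cluster 5, led by Pcp4, Crym and Dact1. It stood at 6.66 (5.43 to 8.08) in the 1112 cells of cluster 0, led by genes that include Tafa2 and Gpr85, and at 2.97 (2.08 to 4.12) in the 730 cells of cluster 9, led by Dync1i1, Sybu and Cdh13. Slc17a7 stood at 38.6 CPM (29.2 to 50.1), 20.3 (18.1 to 22.7) and 38.1 (34.7 to 41.7). Cluster 5 against cluster 9 gave a ratio of 8.58 (5.28 to 13.97) for Slc17a6 and 1.01 (0.754 to 1.34) for Slc17a7, while 8.42% of all genes were at least 2-fold apart. Cluster 9 had 1.88 times the Slc17a7 of cluster 0 (1.62 to 2.17), where 5.44% were. Clusters 5 and 9 had like levels of Bcl11b, a factor of deep-layer neurons (625 and 705 CPM), and cluster 5 had more Neurod1 (429 against 31.9 CPM).

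**Figure D2:**
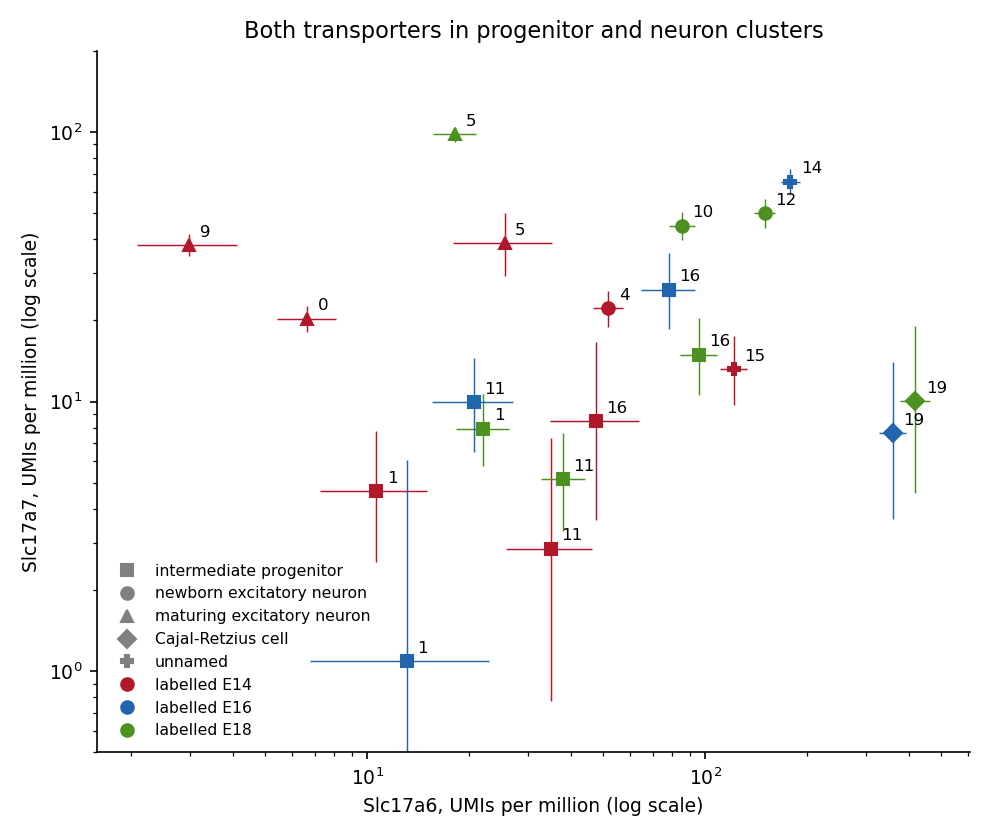
Slc17a6 (x axis) against Slc17a7 (y axis) in CPM, both on log axes, in progenitor and neuron clusters with at least 50 cells of a library. Numbers are clusters, colours are libraries, shapes are classes and bars are 95% exact counting intervals. Along the Slc17a6 axis, newborn neurons lie between maturing neurons (triangles) on the left and Cajal-Retzius cells (diamonds, cluster 19) at the lower right. Along the Slc17a7 axis, cluster 5 of E18 is the only maturing group above all newborn clusters.

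From newborn to maturing neurons of one library, Slc17a6 was lower, and Slc17a7 was higher over the class as a whole. The ratio of maturing to newborn levels was 0.117 (0.0973 to 0.140) for Slc17a6 in E14 and 0.155 (0.133 to 0.181) in E18. For Slc17a7 it was 1.30 (1.10 to 1.54) in E14 and 2.05 (1.84 to 2.28) in E18. In E14 this did not hold for cluster 0, the largest maturing cluster, whose 20.3 CPM of Slc17a7 was not above the 22.2 (18.9 to 25.8) of newborn cluster 4. Slc17a6 passed 2-fold in both libraries and Slc17a7 in E18 alone, where 7.38% (E14) and 10.5% (E18) of all genes were at least 2-fold apart. The change in Slc17a6 was larger in size than that of 99.5% of genes in E14 and 98.4% in E18. Over the alternatives tried, the ratio for Slc17a6 stayed between 0.0706 and 0.124 in E14 and between 0.0466 and 0.215 in E18, and that for Slc17a7 between 1.03 and 1.58 and between 2.02 and 2.22.

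Expressed as a share, Slc17a6 gave 70.2% (66.2 to 73.9) of the UMIs of both transporters in newborn neurons of E14 and 70.9% (68.8 to 73.0) in those of E18. In maturing neurons the share was 17.4% (15.1 to 19.9) and 15.6% (13.6 to 17.8). The difference of maturing minus newborn was -52.7 percentage points (-57.1 to -48.0) in E14 and -55.3 (-58.2 to -52.3) in E18. The kit counts a tag at the end of each transcript, so these UMIs are not divided by length. How well each gene is captured is unknown, so a share is compared between groups of cells and is not a ratio of molecules.

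Clusters of intermediate progenitors and neurons with at least 50 cells of a library, GABAergic cells left out, were ordered by this share. Cajal-Retzius cells came first and maturing neurons last, with intermediate progenitors and newborn neurons interleaved between them. Cajal-Retzius cells led this order with 97.9% (96.2 to 98.996) in E16 and 97.7% (95.6 to 98.9) in E18. Outside it, choroid plexus of E16 and cortical hem of E16 and E18 had UMIs of Slc17a6 alone. Radial glia, with few UMIs of either gene, had 31.25% in E14, 78.0% in E16 and 25% in E18. Intermediate progenitors had 82.9% (76.0 to 88.5) in E14, 73.5% (67.6 to 78.8) in E16 and 83.6% (80.6 to 86.4) in E18, and their clusters ranged from 67.5% (cluster 11 of E16) to 92.5% (cluster 11 of E14). The newborn clusters had 74.98% (72.2 to 77.6) in cluster 12, 70.0% (66.0 to 73.8) in cluster 4 and 65.6% (62.1 to 68.9) in cluster 10. A gap separated these from the maturing groups, which had 39.8% (29.8 to 50.5) and 15.7% (13.7 to 17.8) in cluster 5 of E14 and E18, 24.7% (20.6 to 29.2) in cluster 0 and 7.24% (5.12 to 9.89) in cluster 9. Above the gap, the interval of intermediate progenitors of E18 lay clear of all 3 newborn clusters and that of cluster 12 clear of cluster 10, while that of the progenitors of E14 overlapped cluster 12 and that of E16 overlapped all 3. Below it, the intervals of the 4 maturing groups did not overlap, and cluster 9 was lowest.

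**Figure D3:**
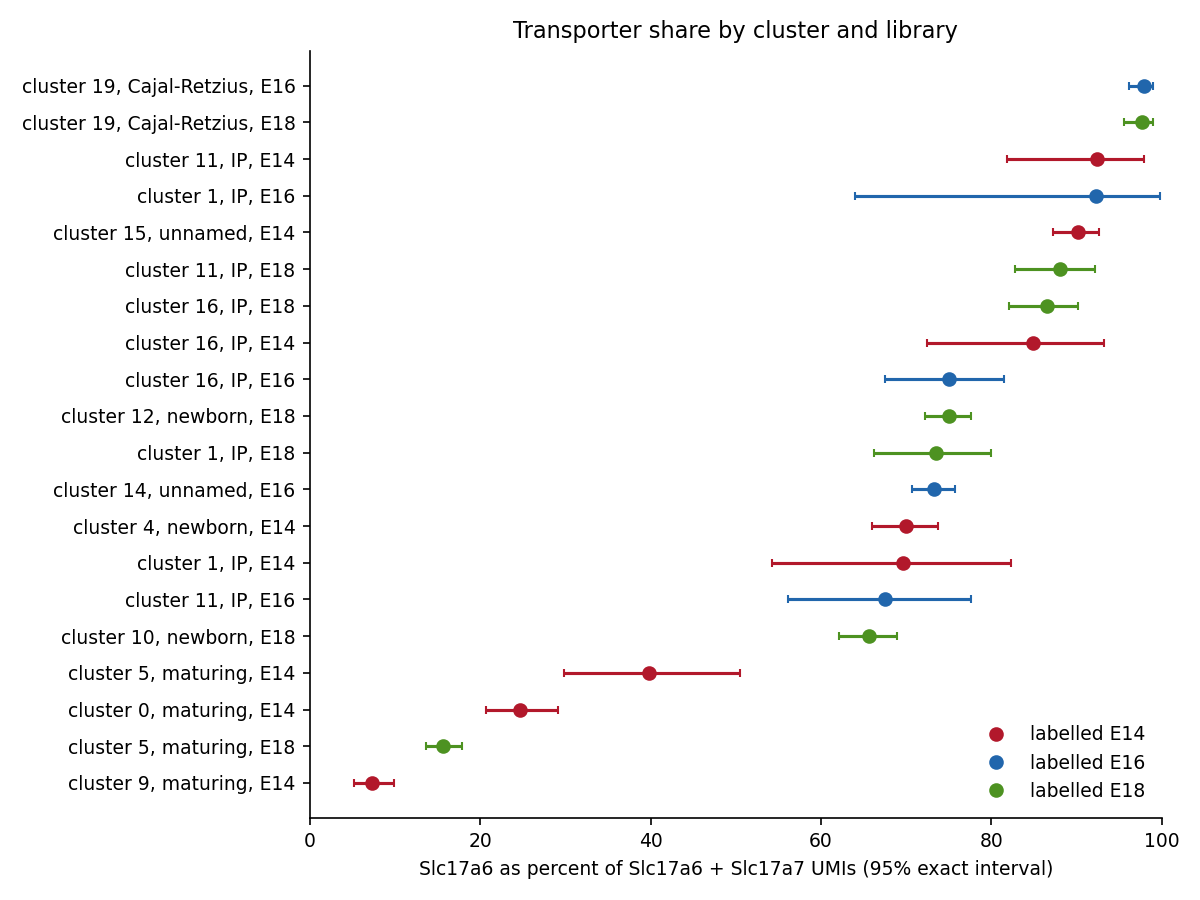
Slc17a6 as a percent of the UMIs of Slc17a6 and Slc17a7 (x axis) in each progenitor (IP, intermediate progenitor) and neuron cluster of each library (y axis), ordered by value. Points are cluster sums with at least 50 cells and bars are 95% exact binomial intervals. All maturing groups lie at or below 39.8%, and all other plotted groups at or above 65.6%. GABAergic clusters, with few UMIs of either gene, are not plotted.

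Between the libraries labelled E14 and E18, Slc17a7 was higher in E18 in both excitatory classes. Its ratio of E18 to E14 was 2.14 (1.80 to 2.57) in newborn and 3.38 (3.08 to 3.71) in maturing neurons, and it stayed between 1.85 and 2.70 and between 3.08 and 4.87 over the alternatives. Slc17a6 had ratios of 2.22 (1.99 to 2.50) and 2.96 (2.39 to 3.65), but these moved to between 0.941 and 2.76 and between 0.713 and 7.68, so its direction is not given. At least 2-fold differences were found for 5.53% of all genes in newborn and 4.3% in maturing neurons. The classes came from different clusters in these libraries. In cluster 5, the one maturing cluster with at least 50 cells of both, Slc17a7 was 97.9 CPM (92.0 to 104) in E18 and 38.6 in E14, a ratio of 2.54 (1.94 to 3.38), while Slc17a6 was 18.2 (15.7 to 20.97) and 25.5, a ratio of 0.713 (0.499 to 1.04), with 6.7% of all genes at least 2-fold apart.

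The share of Slc17a6 within a class differed between E18 and E14 by less than its counting error, by 0.781 percentage points (-3.55 to 5.27) in newborn and -1.84 (-5.04 to 1.32) in maturing neurons. The classes came from different clusters, and within cluster 5 the share was 39.8% (29.8 to 50.5) in E14 and 15.7% (13.7 to 17.8) in E18, with intervals apart. Over both classes together the share was 36.4% (34.0 to 38.8) in E14 and 48.6% (46.8 to 50.4) in E18, a difference of 12.2 points (9.15 to 15.2), where 5.42% of all genes differed at least 2-fold. Newborn cells were 916 of 2838 excitatory neurons in E14 and 1313 of 2143 in E18. These 3 differences between libraries did not keep their sign over the alternatives. The summed level of 10 stress and immediate early genes was 377 and 362 CPM in newborn neurons of E14 and E18 and 154 and 178 in maturing ones, and mitochondrial UMIs were 7.32% and 5.76% of newborn and 6.99% and 5.74% of maturing totals. Their part in the differences was not tested.

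Some single cells held both transcripts. Of 1313 newborn neurons of E18, 206 (15.7%) had UMIs of both genes, 467 (35.6%) of Slc17a6 alone, 150 (11.4%) of Slc17a7 alone and 490 of neither. Of 916 in E14, 46 (5.02%) had both, 208 (22.7%) Slc17a6 alone and 102 (11.1%) Slc17a7 alone. If the genes were detected independently within the class, 182 cells of E18 and 41.0 of E14 would have had both, close to the counts found. Maturing neurons had both in 49 of 830 cells (5.90%) in E18 and 45 of 1922 (2.34%) in E14, against 54.5 and 38.2 under independence. Intermediate progenitors had both in 6 cells of E14, 23 of E16 and 47 of E18, against 4.35, 10.5 and 21.5 under independence. After thinning to 2000 UMIs these were 0, 2 and 0 cells, against 0.124, 0.885 and 1.28, and at 4000 UMIs they were 0, 3 and 8, against 0.677, 2.31 and 4.33. The highest count in one excitatory neuron was 18 UMIs of Slc17a6 in a newborn cell of E18 and 9 UMIs of Slc17a7 in maturing cells of either library.

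Depth differed between cells, so shares were also taken after thinning each cell to 2000 UMIs. Over both excitatory classes, 23 of 2130 cells of E18 (1.08%, 0.686 to 1.62) and 6 of 2827 cells of E14 (0.212%, 0.0779 to 0.461) then had both, a difference of 0.868 percentage points (0.401 to 1.42). Independence within all these cells would give 26.5 and 5.23. With each class drawn separately, newborn neurons had both in 16 of 1311 cells of E18 (1.22%) and 3 of 910 of E14 (0.330%), and maturing neurons in 1 of 819 (0.122%) and 4 of 1917 (0.209%), too few to order the libraries. At 4000 UMIs, newborn neurons had both in 69 of 1293 cells of E18 (5.34%, 4.18 to 6.71) and 16 of 887 of E14 (1.80%, 1.03 to 2.91), and maturing neurons in 9 of 806 (1.12%, 0.512 to 2.11) and 4 of 1897 (0.211%, 0.0575 to 0.539). Over both classes, thinning to 2000 UMIs left out 13 shallower cells of E18 and 11 of E14, and thinning to 4000 left out 44 and 54. Before thinning, 11.9% and 3.21% had both, with median depths of 8985 and 12362 UMIs. The difference over both classes was positive under each alternative. GABAergic cells, which should lack both genes, had both in 0 of 56 (E14), 0 of 73 (E16) and 0 of 72 cells (E18) before thinning, which at 3 counts allows shares of up to 5.36%, 4.11% and 4.17% (upper exact bounds of 6.38%, 4.93% and 4.99%), at median depths of 6010, 7492 and 5486 UMIs. Radial glia, which were deeper at median depths of 13113 and 12529 UMIs, had both in 0 of 391 cells of E14, which at 3 counts allows up to 0.767% (upper exact bound 0.939%), and in 1 of 1805 of E18 (0.0554%).

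**Figure D4:**
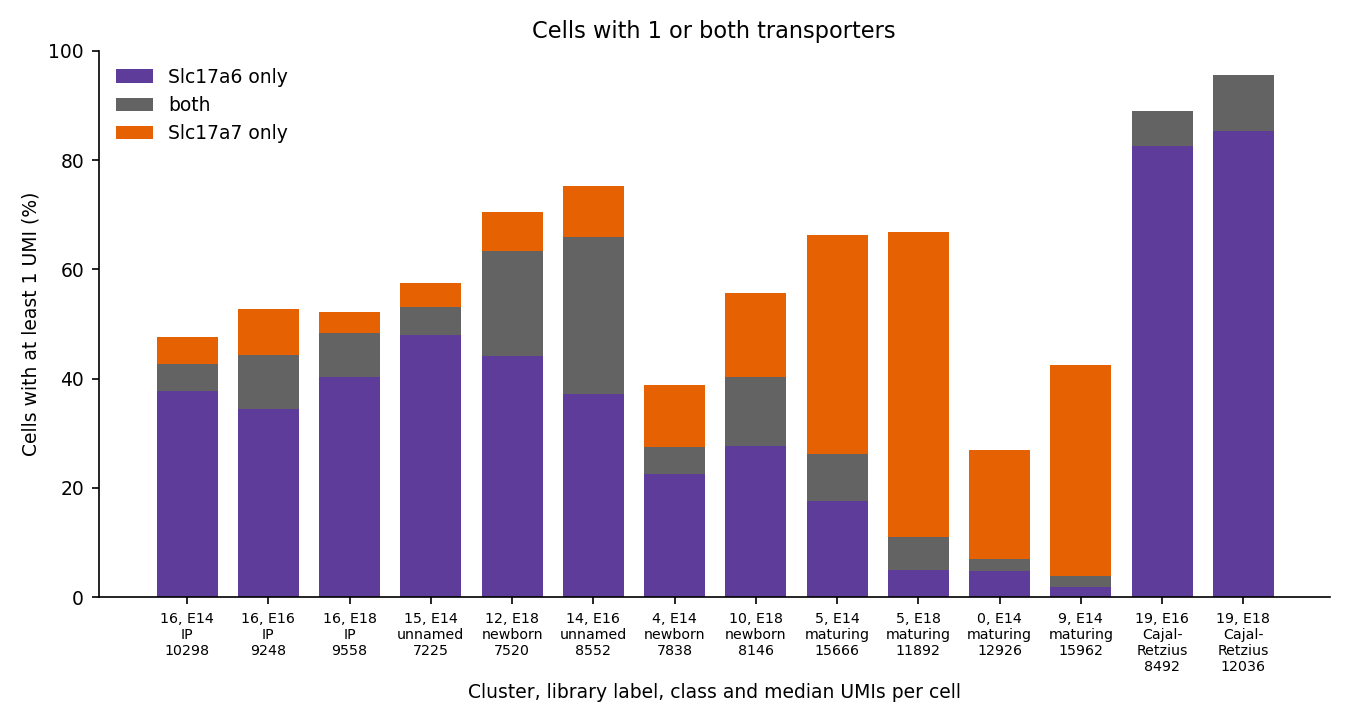
Percent of cells (y axis, stacked) with at least 1 UMI of Slc17a6 only, of both genes or of Slc17a7 only, in cluster 16 of the intermediate progenitors (IP) and in neuron clusters, unthinned. Labels under the bars give cluster, library, class and median UMIs per cell, since depth sets part of each share. Cells with Slc17a7 only make up 55.9% of cluster 5 in E18, and cells with Slc17a6 only make up 82.6% and 85.3% of Cajal-Retzius cells in E16 and E18.

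Newborn neurons that held only Slc17a6 carried more intermediate progenitor RNA, and maturing neurons that did so more newborn RNA, than cells of the same class that held only Slc17a7. In newborn neurons of E18, the 10 intermediate progenitor markers summed to 3051 CPM (2997 to 3107) in the Slc17a6 cells and 2012 (1935 to 2090) in the Slc17a7 cells, and the 14 maturing markers to 5141 (5070 to 5213) and 5941 (5809 to 6075). In E14 the same sums were 1743 and 1577 CPM for progenitor markers and 5280 and 5654 for maturing ones. The order was the same in both libraries, with a smaller gap in E14. Newborn cells with both genes had 3166 CPM of progenitor markers in E18 and 1532 in E14. Those with neither had 2153 and 1439, above the Slc17a7 cells in E18 and below them in E14. In maturing neurons, the 10 newborn markers summed to 5572 and 4376 CPM in E18 and 5637 and 4955 in E14, again higher in the Slc17a6 cells. The radial glia markers had the opposite order in newborn neurons of E14, at 307 CPM in the Slc17a6 cells against 403, and in intermediate progenitors of E18, at 1301 against 2098. In those progenitors the Slc17a6 cells also had less intermediate progenitor RNA (5552 against 7843 CPM) and more maturing RNA (2243 against 1568). In maturing neurons of E14 the maturing markers stood at 7637 (7487 to 7790) and 7577 CPM (7520 to 7634), with overlapping intervals. The compared cells came from the clusters of a class in unlike shares. Cluster 12 held 278 of 467 Slc17a6 cells but 45 of 150 Slc17a7 cells of newborn E18, and cluster 9 held 13 of 81 and 282 of 537 of maturing E14. These groups were set by the transporters, at median depths of 7702 and 8451 UMIs in newborn cells of E18, and cells of 1 library are not replicates.

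Cajal-Retzius cells had the highest Slc17a6 of any class. It was 359 CPM (328 to 393) in 144 cells of E16 and 419 (377 to 463) in 68 of E18, and 267 (213 to 330) in the 16 cells of E14. Slc17a7 was 7.65 CPM (3.67 to 14.1) in E16 and 10.0 (4.59 to 19.1) in E18, with 0 UMIs in E14. Slc17a6 was seen in 88.9% of the E16 cells and 95.6% of the E18 cells, at a median of 3 and 4 UMIs per cell. The ratio of E18 to E16 was 1.16 (1.01 to 1.34) for Slc17a6 and 1.31 (0.472 to 3.60) for Slc17a7, where 10.4% of all genes were at least 2-fold apart. Every one of the 9 and 7 cells with Slc17a7 also had Slc17a6. The levels in E16 depend on the clustering. Clustering each library alone gave 241 CPM of Slc17a6 and 52.97 of Slc17a7 there, and giving every cluster its best class, which adds cluster 14 to this one, gave 216 and 53.6. Reln, which encodes reelin, was among the markers used for the name (1311 and 4232 CPM). Tp73, a p53 family member typical of these cells, did not enter the naming and stood at 514 and 374 CPM.

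The main neurons of the library labelled E16 sat in cluster 14, 560 of whose cells came from it and which is led by Calb1, Calb2, Ebf1 and Lhx9. It was left unnamed, because its best class, Cajal-Retzius, had only 2 raised markers and the rule asked for 3. It had 179 CPM of Slc17a6 (167 to 191) and 65.4 of Slc17a7 (58.5 to 72.8), a Slc17a6 share of 73.2% (70.7 to 75.7), like that of newborn neurons. Both genes were seen in 161 cells (28.8%), Slc17a6 alone in 208 (37.1%) and Slc17a7 alone in 52 (9.29%), and independence would give 140.4 cells with both. Among its markers were Bcl11b (999.7 CPM) and Tbr1 (560 CPM), factors of deep-layer cortical neurons. The 10 markers of subcortical glutamatergic neurons, which carry VGLUT2 in the adult, summed to 399.6 CPM, with only Gbx2 at 0 and Lhx9 alone at 178. The sum was 5.54 to 56.1 CPM in the named excitatory clusters. In the Cajal-Retzius cells of E16 and E18 it was 408 and 365, of which Lhx9 gave 354 and 285. The 8 Cajal-Retzius markers summed to 405 CPM, with Reln at 91.3 and Tp73 at 2.94. Their part in the transporter levels was not tested. Cajal-Retzius cells of the same library had 2.01 times the Slc17a6 (1.79 to 2.25) and 0.117 times the Slc17a7 (0.0556 to 0.218) of cluster 14, and 9.88% of all genes were at least 2-fold apart.

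Cluster 15, 487 of whose cells came from the library labelled E14, is led by Sstr2, Cxcl12 and Negr1 and also stayed unnamed, since it raised 8 newborn markers but held more markers of intermediate progenitors among its leading genes. It had 121 CPM of Slc17a6 (110 to 133) and 13.2 of Slc17a7 (9.72 to 17.5), a Slc17a6 share of 90.2% (87.2 to 92.7). Against cluster 4, the newborn neurons of that library, this was 2.35 times the Slc17a6 (2.04 to 2.70) and 0.595 times the Slc17a7 (0.422 to 0.824), where 7.97% of all genes were at least 2-fold apart. Its Eomes level was 566 CPM against 14.8 in cluster 4, and its Top2a level was 6.86 CPM. In E14 the Slc17a6 level was 10.6, 34.9 and 47.6 CPM in progenitor clusters 1, 11 and 16, 121 in cluster 15 and 51.7 in cluster 4. It was 25.5, 6.66 and 2.97 CPM in maturing clusters 5, 0 and 9. The cells were not placed in a developmental order.

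Slc17a6 was also present in a small cluster of the cortical hem, the signalling centre at the medial edge of the cortex, led by Bmp4, Wfdc1 and Cbln1. It held 29 UMIs in 18 cells of E16 (107 CPM, 71.5 to 153) and 29 UMIs in 12 cells of E18 (119 CPM, 79.7 to 171), spread over 9 and 8 cells with at most 8 each. Slc17a7 had 0 UMIs in both, against levels of 11.05 and 12.3 CPM that 3 counts would give. Neurod1 and Neurod6 had 0 UMIs there in E16 and 1 UMI each in E18, Reln 0 and 4, and Tp73 0 in both. Other genes of the neuron marker lists were present, with Lhx9 at 387 and 480 CPM and Bcl11b at 103 and 45.1 CPM, and the cluster has only 30 cells in these libraries.

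Cells that should lack the transporters set the level of background. GABAergic cells had 0 UMIs of Slc17a6 in E14 (limit 8.95 CPM at 3 counts), 1 in E16 (1.72 CPM) and 1 in E18 (2.37 CPM). Slc17a7 had 0 UMIs in E14 and E16, and 4 in 1 cell of E18 (9.48 CPM, 2.58 to 24.3). Choroid plexus, the epithelium that makes cerebrospinal fluid, had 11.6 CPM of Slc17a6 (7.99 to 16.3) in E16, in 15 of 151 cells, and 5.49 (2.51 to 10.4) in E18. Erythroid, meningeal, mural and microglial cells together had 1.21 CPM of Slc17a6 in E14 (1 UMI), 1.27 in E16 and 0 UMIs in E18, and 1.21 CPM of Slc17a7 in E14 (1 UMI), 0 UMIs in E16 and 3.21 CPM in E18. The 6.06 CPM of Slc17a6 in maturing neurons of E14 lay above the 0.867 CPM of radial glia of that library and under the limit that 0 UMIs in its GABAergic cells allow. In E18, Slc17a7 of intermediate progenitors (8.35 CPM) and of Cajal-Retzius cells (10.0 CPM) lay within the interval of the GABAergic cells. In E16, the Slc17a6 interval of choroid plexus overlapped that of progenitor cluster 1 (6.77 to 22.9 CPM).

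Other members of the SLC17 family behaved otherwise. Slc17a8, which encodes VGLUT3, had 0 UMIs in newborn and maturing neurons of E14 and E18, in Cajal-Retzius cells of E16 and E18 and in GABAergic cells. It was found in choroid plexus, with 9 UMIs in E16 (3.16 CPM, 1.45 to 6.01) and 18 in E18 (10.98 CPM, 6.51 to 17.4). Slc17a5, the lysosomal sialic acid transporter sialin, was found in every class measured for it, with 17.7 CPM (16.2 to 19.3) in maturing and 23.4 (20.1 to 27.1) in newborn neurons of E14. Slc17a9, a vesicular nucleotide transporter, had at most 2 UMIs in any excitatory, progenitor or radial glia sum of E14 and E18 and 3 in radial glia of E16.

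The other genes of glutamate release were read against the same 2-fold rule, on log2 ratios with 1 CPM added, among genes with at least 5 CPM on average. From newborn to maturing neurons, some synaptic vesicle genes were higher in maturing neurons: 4 of 13 tested were higher and 1 lower in E14, and 7 of 15 were higher in E18, with median log2 ratios of 0.50 and 1.00 against -0.07 and -0.04 over all genes. In E14 the largest were Syt1, a calcium sensor of release (1.68), Cplx1, a complexin (1.60), and Vamp1, a vesicle SNARE (-1.42). In E18 they were Sv2b (4.74), a vesicle glycoprotein, Syn2 (3.25), a synapsin, and Cplx1 (2.45). Syt1 and Snap25 were themselves markers of the class, and without class markers the counts were 2 higher and 1 lower of 11 in E14 and 5 higher of 13 in E18. Of all genes, 4.11% were higher and 3.26% lower in E14, and 6.34% higher and 4.12% lower in E18.

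The genes that power and feed vesicle loading were read in the same way. None of 14 vacuolar ATPase subunits tested, of 16 listed, passed 2-fold from newborn to maturing neurons in E14 or E18, with medians of 0.13 and 0.38. None of 8 genes of glutamate supply, such as the glutamine transporters Slc38a1 and Slc38a2, passed in either, with medians of -0.02 and 0.01. Of the glutamate uptake genes, 2 of 4 were tested, and Slc1a1, a neuronal transporter, was higher in maturing neurons of E18 (log2 ratio 1.23). No gene of GABA synthesis and loading reached the filter. With 7.38% and 10.5% of all genes past 2-fold in E14 and E18, nothing is read from these counts.

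Between E18 and E14, 3 of 14 synaptic vesicle genes were higher in maturing neurons of E18, namely Syn2 (log2 ratio 3.76), Sv2b (2.34) and Cplx2 (1.49), beside the log2 ratio of 1.72 for Slc17a7. None of 13 passed in newborn neurons, where Slc17a7 had 1.07 and Slc17a6 1.14. Vacuolar ATPase and glutamate supply genes passed in neither. The uptake gene Slc1a2 was higher in E18 in newborn (1.996) and maturing neurons (1.14), and Slc1a1 was lower in newborn neurons (-1.12). Of all genes, 2.68% were higher and 2.84% lower in E18 in newborn neurons, and 2.4% and 1.9% in maturing ones.

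The genes most like each transporter were named over 12 sums of a neuron cluster in a library, by Pearson's r of log2(CPM + 10) among 4569 genes. For Slc17a6 these were Nhlh2 (r = 0.983), a helix-loop-helix factor, Btg2 (0.970), LOC103692495 (0.964), Cxadr (0.963), which is one of the newborn markers, and Nxph4 (0.957). For Slc17a7 they were Adamts18 (0.935), Kcng1 (0.930), Dpy19l3 (0.924), Bcl11a (0.919) and Masp1 (0.915). Nhlh2 ran from 0 CPM in GABAergic cells of E14 to 1100.5 in Cajal-Retzius cells of E18, while Adamts18 ran from 0 to 238 CPM, highest in cluster 5 of E18. The transporters had r = 0.155 with each other. The sums share libraries and depth, several come from 1 library, and the values describe them without a test.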

How the data were processed

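The deposited matrices hold raw UMI counts per gene and cell barcode, made by the authors with Cell Ranger 6.0.1 on the rat build mRatBN7.2, per the submitters' processing notes. Barcodes with at least 1000 genes and at most 10% mitochondrial UMIs were kept. The highest doublet scores (Scrublet in scanpy 1.11.5) were removed at 0.8% per 1000 cells, which took 158, 216 and 259 cells. Cells were clustered together (2000 variable genes without either transporter or any tested list, 30 principal components, 15 neighbours, leidenalg 0.10.2 at resolution 1, Python 3.11.15). A cluster was named for the class whose markers were raised most on average, provided that at least 3 were and no other class had more markers among the cluster's 10 leading genes. Of 147 marker symbols, 1 was not found. UMIs were summed by class and library. Exact 95% intervals (scipy 1.17.1) cover counting error only, and libraries were not replicated, so no test was made. The summing and 2-fold steps were tested on simulated data.

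The members, marker lists and way of naming clusters were chosen with earlier results of these data known. Named pathway genes are at most 3 per list, the largest past 2-fold, and the likeness rule takes the 5 highest correlations in named neuron classes. Thinning drew each cell to 2000 UMIs and left out shallower ones. Alternatives covered the cell filter, doublet rate, clustering, thinning, filter on low values, pseudocount and normalization. Giving every cluster its best class was added after seeing the data. Comparisons of single clusters, including the progenitor ones, were made under the main settings only.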

Additional observations from a re-analysis of the deposited data

Results flagged for a closer look

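Barcodes left out under the main settings also carried both transporters, above the levels of 0.303 to 0.341 CPM that 3 counts would give. Some of them entered the alternatives with a looser filter or without doublet removal. The 2814 barcodes left out of the library labelled E14 had 18.2 CPM of Slc17a6 and 33.0 CPM of Slc17a7. The 1730 of E16 had 27.1 CPM of Slc17a6 and 7.23 CPM of Slc17a7, and the 1506 of E18 had 27.6 and 29.1 CPM. Among the cells kept, the corresponding levels over all classes were 23.3 and 20.5 CPM in E14, 23.7 and 5.88 CPM in E16 and 37.8 and 26.2 CPM in E18. Slc17a6 exceeded Slc17a7 in the kept cells of E14 and was below it in the barcodes left out, at 18.2 (15.6 to 21.1) against 33.0 CPM (29.6 to 36.8). In the barcodes left out of E18 the intervals overlapped, at 24.2 to 31.3 and 25.6 to 32.9 CPM. No label names the cells behind these barcodes.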

How the results depend on the processing

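The share of Slc17a6 was lower in maturing than in newborn neurons under every alternative that gave a value, by -62.4 to -48.3 percentage points in E14 and -61.2 to -39.6 in E18. No paired analysis was possible because each label has 1 library and no replicate number. Among the main results, 26 alternative values kept their sign and size, 26 moved and 10 changed sign, in each case a difference between libraries, and the cause was not tested.

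For the share of Slc17a6 in E18 minus E14, in percentage points, a filter of 2000 genes and 5% mitochondrial UMIs gave -3.87 over all excitatory neurons. A filter of 500 genes and 20% gave -15.5 in newborn, -5.22 in maturing and -2.81 in all of them. Without doublet removal the values were -13.9, -15.4 and 0.309, and at 2 times the doublet rate -0.527, -12.6 and 6.83. Resolution 0.5 gave -26.8 in maturing neurons, and resolution 2 gave 6.32 in newborn and -6.26 in maturing ones. Clustering each library alone gave 7.04 and 11.8. Keeping the tested lists and transporters among the variable genes gave -24.6 in newborn and -17.2 in all neurons. Giving every cluster its best class, chosen after seeing the data, gave -8.47 and -0.536.

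For maturing minus newborn neurons, the looser filter gave -62.4 in E14 and -52.1 in E18, no doublet removal -59.5 and -61.0, and keeping the lists -60.7 and -39.6. The best class gave -62.0 in E14. In E18, the doublet rate at 2 times gave -61.2, resolution 2 gave -60.9 and separate clustering -50.9. The difference in cells with both genes rose from 0.868 to 3.20 points at 4000 UMIs and 8.69 without thinning. Pathway genes past 2-fold without class markers numbered 3 in E14, against 6 with the looser filter, 5 with no doublets removed, 1 at 2 times the rate, 6 with no filter on low values and 1 with 10 CPM added.

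The Slc17a6 ratio of E18 to E14 changed side in maturing neurons with no doublets removed (0.713), at 2 times the rate (0.852) and at resolution 0.5 (0.749), and in newborn neurons with the lists kept (0.941). The stricter filter and resolution 0.5 left too few cells for some classes, so newborn E18 minus E14, maturing minus newborn in E14 and the pathway count have no value there, nor has maturing minus newborn in E18 under the stricter filter. Newborn neurons of E16 gave no value under any setting. Depth limits the GABAergic cells, where 3 counts would give up to 8.95 CPM.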
